A study of Mus musculus with 2 samples.

Results

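Death genes were followed in lung resident macrophages of mice that carried Nippostrongylus brasiliensis, a parasitic roundworm with a larval stage in the lung. The set held 38 genes of the BCL2 family, the caspases and the pathways that control them, chosen by name, and 36 of them had a row among the 38293 genes of the deposited table. The other two, Bcl2a1a and Bcl2a1d, were not analysed here. Of the 36, 35 were measured, which means a mean of at least 20 normalised reads over both libraries, and Bik was not.

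The series has 2 groups of 1 library each. Both came from C57BL/6 mice 8 weeks old, inoculated under the skin with 625 third-stage larvae and killed 7 days later. The sort gate was CD45+, CD11c high, Siglec-F+ and CD11b low, and the labels do not say how many mice gave the cells of a library. One library came from WT mice and the other from Axl-/-Mertk-/- mice, which lack a pair of receptor kinases with which macrophages bind apoptotic cells, and no uninfected group enters the comparison. The part deleted in either gene, its donor strain and whether the deletion is limited to a cell type were not given in the sources used here. Since each genotype has a single library, no difference has a replicate check, none was tested and there are no p-values. For short, the Axl-/-Mertk-/- library is called the mutant below.

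Apoptosis through the mitochondrion is decided by the BCL2 family. Pro-survival members such as MCL1 hold the pore formers BAX and BAK in check, and BH3-only proteins such as BIM release them, after which cytochrome c leaves the mitochondrion, binds APAF1 and activates caspase-9. Death receptors of the TNF receptor family start the caspase cascade by another route, through FADD and caspase-8, and where caspase-8 is blocked the kinases RIPK1 and RIPK3 and the pseudokinase MLKL can cause necroptosis. Macrophages also carry inflammatory caspases, which open gasdermin D pores and cause pyroptosis. Transcript levels do not show the activity of these proteins, many of which are controlled after translation.

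The death genes were expressed at nearly the same level in both libraries. None of the 35 measured genes (0) was at least 1.5-fold higher or lower in the mutant, whereas 3.07% of all 11795 measured genes were, 1.74% higher and 1.33% lower. The median log2 ratio, mutant over WT with 10 added to each value, was -0.0068 over the death genes and -0.0047 over all measured genes, and 16 death genes were higher and 19 lower. The lowest log2 ratio was -0.28, for Tnfrsf10b, and the highest 0.28, for Bcl2. The death genes are more abundant than most: 34 of the 35 had a mean of at least 100, and among all genes that abundant the share past 1.5-fold was 1.21%. A share of 0 of 35 is therefore near the background. Past a smaller difference, a log2 ratio of 0.32 in either direction, there were also 0 death genes, beside 11.9% of all measured genes and 6.43% of those with a mean of at least 100.

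**Figure D1:**
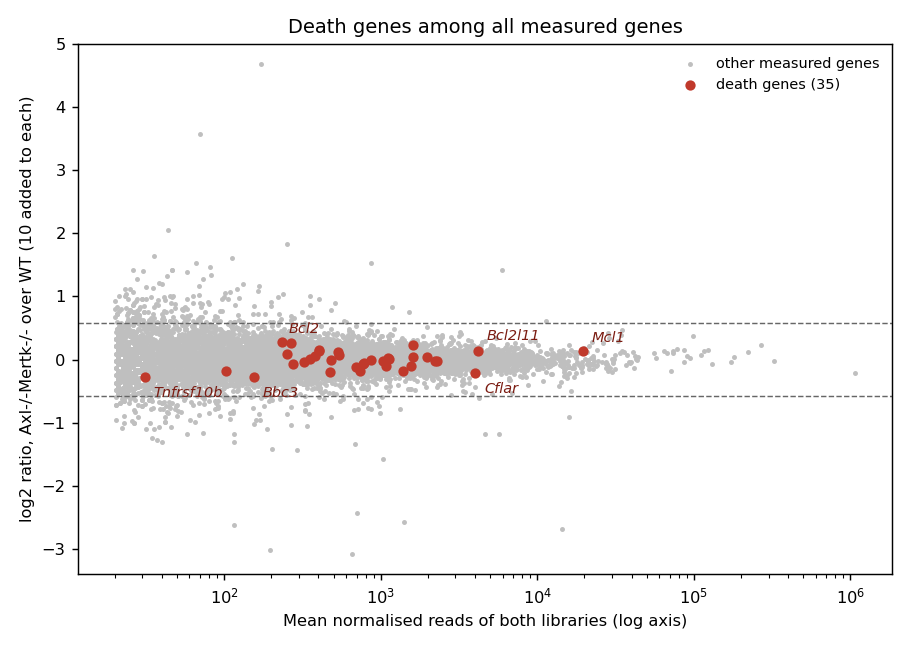
Each point is a gene, by its mean normalised reads over both libraries (log axis) and its log2 ratio of Axl-/-Mertk-/- over WT with 10 added to each value, with the 35 measured death genes in red, all other measured genes in grey and dashed lines at 1.5-fold. The red points lie between -0.28 and 0.28, inside the dashed lines, while grey points reach -3.07 and 4.69.

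Counting error sets how far each ratio can be read. Exact 95% intervals (Clopper-Pearson) were taken from the whole reads behind the values, and they cover counting error only. The interval excluded 1 for 8 of the 35 death genes, or 22.9%, beside 21.5% of all measured genes and 23.8% of those with a mean of at least 100, which compares these libraries and not the genotypes. It lay above 1 for 5 (Mcl1, Bcl2, Bcl2l11, Pmaip1 and Bid; 10.1% of all measured genes) and below 1 for 3 (Cflar, Bax and Casp4; 11.4% of all). For 31 of 35 the whole interval lay inside 1.5-fold in either direction, beside 74.3% of all measured genes. An interval narrows as reads rise and the death genes are more abundant than most, and this comparison was not matched for abundance. For these 31 a 1.5-fold difference between the libraries lies outside counting error. Bcl2, Bbc3, Tnfsf10 and Tnfrsf10b had intervals that reached beyond it.

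**Figure D2:**
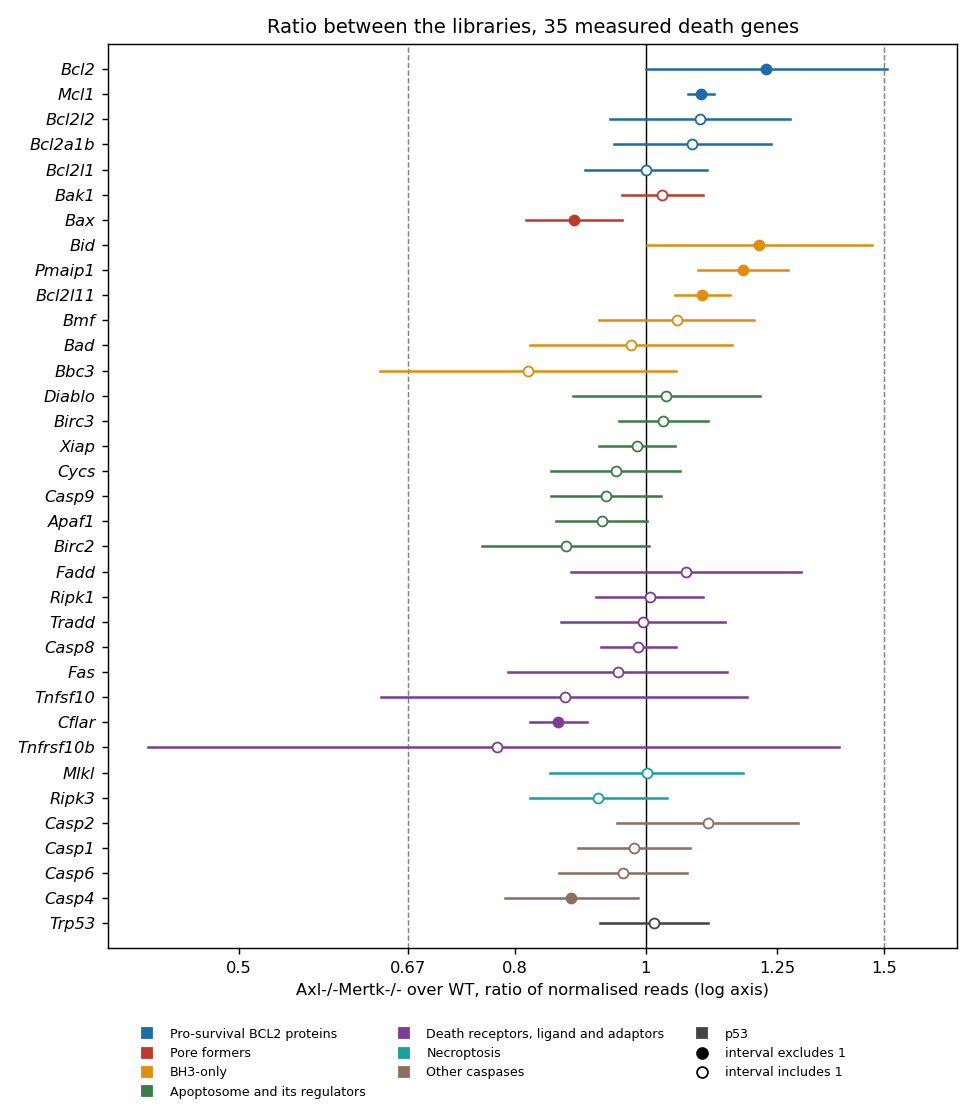
The ratio of normalised reads, Axl-/-Mertk-/- over WT (log axis), is drawn for the 35 measured death genes by role, with its exact 95% counting interval; filled points have an interval that excludes 1, and dashed lines mark 1.5-fold. The 8 filled points are Bcl2, Mcl1, Bid, Pmaip1 and Bcl2l11 above 1, and Bax, Cflar and Casp4 below 1.

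Both libraries were deep and the labels were borne out in direction by the targeted genes. The WT library held 15282882 reads and the mutant 15519680, of which the 36 death genes took 0.288% and 0.298%. Axl was at 24790 and 3851 normalised reads (WT first, here and below) and Mertk at 6484 and 2842, so that reads from both remained. The genes behind the sort gate were abundant, Itgax (CD11c) at 40087 and 39176 and Siglecf at 2566 and 2347. All 13 markers of alveolar macrophages were measured, with summed levels of 1267730 in WT and 1097380 in the mutant, and 11 of the 13 were lower in the mutant. Markers of monocytes and interstitial macrophages summed to 73178 and 90574 (10 of 12 higher), those of neutrophils to 5132 and 5701 (6 of 9 measured higher), and those of endothelium to 815 and 1260 (6 of 6 higher). Of the monocyte and interstitial macrophage sum, Apoe, which lies 6.06 Mb from Axl, gave 28900 and 40081. Folr2 was among the genes of that list that were lower, at 226 and 111. Markers of T, NK and innate lymphoid cells summed to 2271 and 2571 (8 of 8 measured higher), B and plasma cells to 1090 and 1031 (6 of 7 lower), dendritic cells to 1528 and 1680 (5 of 6 higher), eosinophils to 1295 and 800.3 (3 of 3 measured lower), and epithelium to 10140 and 8791 (5 of 6 lower). Some sums rest mostly on 1 gene: Chil3 gave 1156230 and 994755 of the alveolar macrophage sum, Alox15 1213 and 724 of the eosinophil sum, and Il7r 1889 and 2082 of the lymphoid sum. Cdh1 likewise gave 6692 and 5916 of the epithelial sum. Pecam1 gave 507 of the endothelial sum in WT and 570.1 in the mutant. Besides Cdh1, the epithelial gene Scgb1a1 (2964 and 2432) had an interval below 1, and the intervals of the other epithelial genes included 1. The eosinophil genes Ccr3 and Prg2 had intervals that included 1. Of the 8 measured lymphoid genes, Il7r and Cd4 (97.8 and 132, ratio 1.35, 1.007 to 1.82) had intervals above 1. The intervals of the other measured lymphoid genes, among them Cd3e, Gata3 and Gzma, included 1. Cd8a, below the minimum mean, had 6 and 22 reads, for a ratio of 3.59 (1.41 to 10.8). The other lymphoid genes below that mean had intervals that included 1. Of the defining markers, the neutrophil genes Ly6g and Camp had 0 reads in WT and 1 in the mutant, the eosinophil gene Epx had 1 and 0, and none was at 0 in both libraries. In a bulk sample fewer cells of a type and less RNA per cell cannot be told apart, and the part of these markers in the ratios of the death genes was not tested.

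Among the pro-survival genes Mcl1 was by far the most abundant. MCL1 is a short-lived protein that binds BIM, NOXA and BAK. Mcl1 had 18663 normalised reads in WT and 20498 in the mutant, or 5460 and 5997 per kilobase of annotated exon, the highest level of all 36 death genes in both libraries. Per kilobase it stood 28.8-fold above Bcl2l1 (BCL-XL) in WT and 31.7-fold in the mutant, and 239-fold and 214-fold above Bcl2. These folds depend on the gene length used: with the longest coding transcript in place of all annotated exons, Mcl1 stood 16.1-fold and 17.7-fold above Bcl2l1 and 188-fold and 168-fold above Bcl2. The ratio of Mcl1 between the libraries was 1.10 (1.07 to 1.12), slightly higher in the mutant. Bcl2, the founding member of the family and common in lymphocytes, had 209 and 256 normalised reads, for a ratio of 1.23 (1.00007 to 1.51). The lower bound barely cleared 1, and with another scaling of the libraries (TMM) the interval included 1. The lymphoid markers that were higher in the mutant include Il7r, and their part in the Bcl2 value was not tested.

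The other pro-survival genes were level within counting error. Bcl2l1, which like Mcl1 guards the outer mitochondrial membrane, had 868.9 and 868.8 normalised reads, for a ratio of 0.9998 (0.901 to 1.11). Bcl2l2, which encodes BCL-W, had 387 and 425, for a ratio of 1.10 (0.941 to 1.28). Bcl2a1b, one of the A1 genes that NF-kB and GM-CSF induce in myeloid cells, had 509 and 551, for a ratio of 1.08 (0.947 to 1.24). Over the 5 measured pro-survival genes the median log2 ratio was 0.13, 4 being higher and 1 lower.

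The A1 genes are near copies on chromosome 9, so the reads of Bcl2a1b are uncertain. The first 150 coding bases are printed here for the gene with a row and its 2 closest copies, because they show how little separates them. They are read 5′ to 3′ from GENCODE vM21 transcripts for GRCm38, with the positions at which the 3 genes differ in capitals.
Bcl2a1b: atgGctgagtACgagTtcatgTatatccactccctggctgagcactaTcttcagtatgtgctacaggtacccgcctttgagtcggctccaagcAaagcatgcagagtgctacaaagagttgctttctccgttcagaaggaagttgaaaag
Bcl2a1a: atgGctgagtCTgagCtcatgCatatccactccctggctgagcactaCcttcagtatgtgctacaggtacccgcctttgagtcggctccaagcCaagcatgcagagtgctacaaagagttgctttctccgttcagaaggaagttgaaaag
Bcl2a1d: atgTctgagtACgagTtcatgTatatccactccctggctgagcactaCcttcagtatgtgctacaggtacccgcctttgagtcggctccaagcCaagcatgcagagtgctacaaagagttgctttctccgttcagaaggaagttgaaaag
The stretches lie at chr9:89199360-89199509 (plus strand), chr9:88957051-88957200 (plus strand) and chr9:88731570-88731719 (minus strand), in each case within 1 exon. They hold 7 differing positions, among them A94C, counted from the A of the start codon, which sets both Bcl2a1a and Bcl2a1d apart from Bcl2a1b. Over all 516 coding bases Bcl2a1b differs from Bcl2a1a at 11 positions (97.9% identity) and from Bcl2a1d at 6 (98.8%). A read between such positions fits every copy, and how the authors treated reads that match several places is not given in the sources used here. Bcl2a1b also shares 49.1% of its exon bases with Gm29094 on the same strand, which was not analysed here. Bcl2a1c, a more distant copy, had 6.03 and 2.36 normalised reads.

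**Figure D3:**
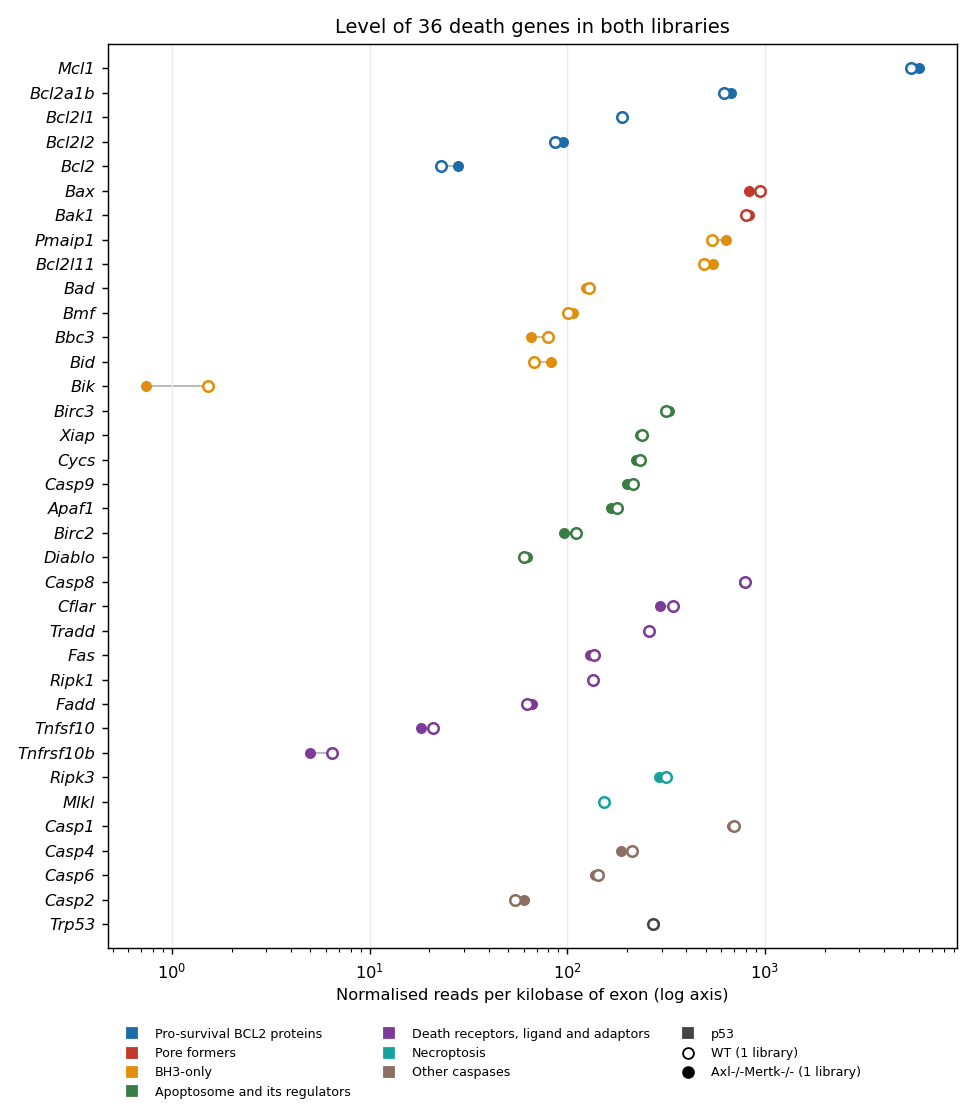
Normalised reads per kilobase of annotated exon (log axis) are drawn for the 36 death genes with a row, by role, with open points for the WT library and filled points for the Axl-/-Mertk-/- library. Mcl1 stands at 5460 and 5997, Bax and Bak1 follow, and Bik, at the left end, rests on 2 reads and 1 read.

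The genes of the pore formers came next in level per kilobase of annotated exon. BAX and BAK, the proteins that perforate the outer mitochondrial membrane, can replace each other in most cells. Bax had 1480 and 1309 normalised reads, or 939 and 831 per kilobase, and Bak1 had 1937 and 1991, or 805 and 827 per kilobase. With all annotated exons as the length they took the second and the third place among the death genes in both libraries, and Bak1 stood at 0.857 of the Bax level in WT and 0.996 in the mutant. With the longest coding transcript it stood at 0.603 and 0.701, and Casp8 took the third place in WT. The ratio was 0.885 (0.815 to 0.960) for Bax, lower in the mutant, and 1.03 (0.960 to 1.10) for Bak1. Bax lies 19.7 Mb from Axl on chromosome 7. Bak1 shares exon bases with Ggnbp1 on the opposite strand, which had 19.3 and 34.2 normalised reads.

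BH3-only proteins sense stress and set off the pathway. Of their 6 measured genes 4 were higher in the mutant (median log2 ratio 0.11), beside 5755 of all 11795 measured genes, so the count itself shows little. Bcl2l11, which encodes BIM and is needed for the death of many blood cells when cytokines are withdrawn, had 3957 and 4357 normalised reads, for a ratio of 1.10 (1.05 to 1.15). Pmaip1, which encodes NOXA, the partner that targets MCL1 for degradation, had 1464 and 1728, for a ratio of 1.18 (1.09 to 1.27). Bid, whose product caspase-8 cleaves to link death receptors with mitochondria, had 241 and 293, for a ratio of 1.21 (1.003 to 1.47). Each of them was higher in the mutant by more than counting error. Per kilobase Mcl1 stood 11.1-fold above Bcl2l11 in both WT and Axl-/-Mertk-/-, and 10.2-fold and 9.48-fold above Pmaip1. With the longest coding transcript the first of these folds was 6.95 in WT and 6.93 in the mutant.

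Bcl2l11 is the death gene closest to a deleted gene. It lies at chr2:128126038-128162547, 0.536 Mb from Mertk (chr2:128698956-128802894), and genes so close are inherited together, so a difference that comes with the chromosome segment and one that comes with the loss of Mertk cannot be told apart. Within 20 Mb of Mertk or Axl there were 4 measured death genes, the other three being Bmf (10.1 Mb from Mertk), Bbc3 (9.44 Mb from Axl) and Bax. Without these 4, the interval excluded 1 for 6 of 31 death genes and the median log2 ratio stayed at -0.0068.

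The remaining BH3-only genes had intervals that included 1. Bbc3, which encodes PUMA, a main effector of p53, had 170.2 and 139 normalised reads, for a ratio of 0.819 (0.635 to 1.05). Bmf, which senses loss of cell attachment, had 530 and 558, for a ratio of 1.05 (0.924 to 1.20). Bad, which growth factor signals keep phosphorylated and inactive, had 327 and 319, for a ratio of 0.974 (0.820 to 1.16). The counting strand is not known, and Bad shares 20.5% of its exon bases with Gpr137 (444 and 433) on the opposite strand, as Bid shares 17.7% with Bcl2l13 (823 and 760.2), itself a BCL2-related gene. Both values are uncertain to that extent. Bik, a BH3-only gene of the endoplasmic reticulum, had 2 reads in WT and 1 in the mutant, below the limit of 3 reads that a count of 0 allows, and no ratio was taken.

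The apoptosome and its regulators were level within counting error. All 7 genes had intervals that included 1 and lay inside 1.5-fold, 2 were higher and 5 lower, and the median log2 ratio was -0.07. Apaf1, the scaffold of the apoptosome, had 1610 and 1493 normalised reads, for a ratio of 0.928 (0.858 to 1.002). Casp9, its initiator caspase, had 1115 and 1042, for a ratio of 0.935 (0.851 to 1.03). Cycs, which encodes cytochrome c, had 795 and 755, for a ratio of 0.9499 (0.851 to 1.06). Each of them was a little lower in the mutant, none of them beyond counting error. Cycs has near copies, the closest being Gm10053 at 99.9% identity, so its reads are uncertain.

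The inhibitor of apoptosis genes differed more in level than in ratio. Xiap, which binds and blocks active caspases directly, had 2250 and 2214 normalised reads, for a ratio of 0.984 (0.923 to 1.05). Birc3 and Birc2 encode the ubiquitin ligases cIAP2 and cIAP1, which act on RIPK1 below TNF receptors. Birc3 had 1583 and 1631, for a ratio of 1.03 (0.955 to 1.11), and Birc2 had 503 and 439, for a ratio of 0.873 (0.757 to 1.006). Per kilobase Birc3 stood 2.88-fold above Birc2 in WT and 3.40-fold in the mutant. Diablo, whose product SMAC leaves the mitochondrion to neutralise these inhibitors, had 372 and 385, for a ratio of 1.04 (0.883 to 1.21). Its value is uncertain, since it shares 21.5% of its exon bases with B3gnt4 on the opposite strand, which had 0 reads in both libraries, and 19.3% with Gm49027 on the same strand, which was not analysed here.

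Of the death receptor genes, only the caspase-8 regulator Cflar had an interval that excluded 1. Cflar encodes c-FLIP, which pairs with caspase-8 and keeps it from triggering death. It had 4318 normalised reads in WT and 3721 in the mutant, for a ratio of 0.862 (0.821 to 0.904), the lowest upper bound among the death genes. Casp8 itself had 2286 and 2257, for a ratio of 0.987 (0.926 to 1.05), and it was the fourth most abundant death gene per kilobase of annotated exon. On that scale Cflar stood below Casp8, at 0.431 of its level in WT and 0.376 in the mutant. With the longest coding transcript Cflar stood at 0.743 and 0.648 of the Casp8 level. The ratio of Cflar to Casp8 was therefore lower in the mutant, at 0.873 of its WT value. Cflar and Casp8 are neighbours on chromosome 1, at chr1:58711508-58758884 and chr1:58795374-58847503.

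The receptors and adaptors around them were level or too low to read. Fas, the receptor of Fas ligand, had 281 and 268 normalised reads, for a ratio of 0.953 (0.790 to 1.15). The adaptors Fadd (243 and 259.7) and Tradd (484 and 482) had ratios of 1.07 (0.880 to 1.30) and 0.995 (0.865 to 1.15). Ripk1, the kinase at which survival, apoptosis and necroptosis part, had 1122 and 1130, for a ratio of 1.01 (0.919 to 1.10). Tnfsf10, which encodes the interferon-induced ligand TRAIL, had 109.8 and 95.6, for a ratio of 0.871 (0.637 to 1.19). Its only death receptor in the mouse, Tnfrsf10b, was the lowest measured death gene, with 29 whole reads in WT and 23 in the mutant, and its interval (0.429 to 1.39) allows a difference of more than 1.5-fold. Over the 8 genes the median log2 ratio was -0.04, 2 being higher and 6 lower.

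The machinery of necroptosis was present and level. Ripk3, the kinase that starts it, had 720.5 and 665 normalised reads, for a ratio of 0.922 (0.821 to 1.04). Mlkl, whose product ruptures the plasma membrane once RIPK3 has phosphorylated it, had 354 in both libraries, for a ratio of 1.001 (0.850 to 1.18). Neither differed by more than counting error.

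Of the inflammatory caspases one was level and one lower. Casp1, which the inflammasome activates to cut pro-IL-1beta and gasdermin D, had 1039 and 1019 normalised reads, for a ratio of 0.980 (0.891 to 1.08). Casp4, the mouse caspase-11 gene, whose product binds cytosolic lipopolysaccharide, had 787 and 693, for a ratio of 0.881 (0.786 to 0.986), lower in the mutant. The pair are neighbours on chromosome 9. Of the other caspases, Casp6 had 800.1 and 769.6, for a ratio of 0.962 (0.862 to 1.07), and Casp2, an initiator linked to DNA damage and chromosome number, had 383 and 425, for a ratio of 1.11 (0.952 to 1.30). Trp53, which encodes p53, had 1101 and 1115 (ratio 1.01, 0.924 to 1.11).

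Bax and Casp4, both lower in the mutant, have promoters with a match to the factor each is textbook-linked to, and these are printed for that reason. Each stretch of 300 bases runs from 250 before to 50 after a start of the gene in the RefSeq table for GRCm38.p6, 5′ to 3′ on the gene's strand. Capitals mark the p53 half-site in Bax and the NF-kB consensus in Casp4, both searched on both strands.
Bax: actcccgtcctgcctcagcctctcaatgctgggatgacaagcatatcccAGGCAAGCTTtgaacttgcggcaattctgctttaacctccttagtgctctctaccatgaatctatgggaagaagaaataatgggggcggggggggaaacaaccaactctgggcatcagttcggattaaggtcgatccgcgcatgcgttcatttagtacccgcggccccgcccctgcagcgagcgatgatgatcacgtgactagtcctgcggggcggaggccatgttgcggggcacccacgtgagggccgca
Casp4: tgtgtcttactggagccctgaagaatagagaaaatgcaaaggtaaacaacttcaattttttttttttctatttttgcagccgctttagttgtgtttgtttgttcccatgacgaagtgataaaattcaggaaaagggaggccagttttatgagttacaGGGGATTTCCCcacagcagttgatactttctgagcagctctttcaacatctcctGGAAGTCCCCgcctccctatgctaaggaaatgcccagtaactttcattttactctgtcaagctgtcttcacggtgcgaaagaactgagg
The Bax stretch is chr7:45466849-45467148 (minus strand), with 1 matching stretch, and the Casp4 stretch is chr9:5308599-5308898 (plus strand), with 2, the first of them made of overlapping matches. Of the 38 listed genes 34 had a promoter in the table, with 47 windows. The NF-kB consensus was found for 6 of these 34 (17.6%; Bbc3, Bcl2l1, Bmf, Casp4, Trp53 and Xiap) and in 9.55% of all 27025 genes, and the p53 half-site for 4 (11.8%; Bax, Birc2, Bmf and Trp53), also beside 9.55% of all genes. Apart from Bax and Casp4, every death gene with a match had an interval that included 1. Cflar, the third gene below 1, has neither sequence in this window. A match describes letters and was not tested as a binding site.

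The other genes of the death pathways, 44 with a value and 37 measured, were also near level. None (0) was past 1.5-fold, 22 were higher and 15 lower, the median log2 ratio was 0.015, and the interval lay above 1 for 3 and below 1 for 5. Among all 11795 measured genes, 3.07% were past 1.5-fold, and the interval lay above 1 for 10.1% and below 1 for 11.4%. Gsdmd, which encodes the pore of pyroptosis, had 1367 and 1401 normalised reads, for a ratio of 1.02 (0.944 to 1.11). Birc5, which encodes survivin, a mitotic protein of the same family as XIAP, had 258 and 266, for a ratio of 1.03 (0.849 to 1.246). In the cell cycle list, to which Birc5 also belongs, 18 of the 20 genes were lower (median log2 ratio -0.22), beside 6040 of all 11795 measured genes.

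The measured gene of that list with the lowest ratio was a ligand. Tnf, the cytokine that can drive death through TNF receptor 1, had 6062 and 4155 normalised reads, for a ratio of 0.685 (0.656 to 0.716), short of 1.5-fold. Its receptor genes were slightly higher in the mutant, Tnfrsf1a at 3629 and 3879 and Tnfrsf1b at 8357 and 8961. Pidd1, a p53 target that activates caspase-2, had 185 and 142, for a ratio of 0.767 (0.599 to 0.981), and Bnip3, a mitophagy receptor, had 186 and 229, for a ratio of 1.23 (0.992 to 1.53). Aim2, a sensor of cytosolic DNA that activates caspase-1, had 897 and 1023, for a ratio of 1.14 (1.03 to 1.26).

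Genes that p53 activates, other than the death genes, were lower in the mutant for 17 of 21 measured, although Trp53 itself was level. The median log2 ratio was -0.08, none (0) was past 1.5-fold, and the interval lay below 1 for 6 and above 1 for 2. Over all 11795 measured genes 6040 were lower, 3.07% were past 1.5-fold, and the interval lay below 1 for 11.4% and above 1 for 10.1%. Gdf15, a stress-induced cytokine that other pathways also induce, had 4056 and 2828 normalised reads, for a ratio of 0.697 (0.661 to 0.735). Plk2 had a ratio of 0.753 (0.713 to 0.794) and Rrm2b, which supplies nucleotides for DNA repair, one of 0.804 (0.672 to 0.962), while Trp53i11 had one of 1.33 (1.06 to 1.68). Of the best known targets, the cell cycle inhibitor Cdkn1a was at 9984 and 9412, for a ratio of 0.943 (0.914 to 0.972), and Mdm2, the ligase that degrades p53, at 3780 and 3755, for one of 0.993 (0.945 to 1.04). Among the death genes the p53 targets did not share a direction, since the interval of Bax lay below 1, that of Pmaip1 above 1, and those of Bbc3, Fas and Tnfrsf10b included 1.

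NF-kB regulators, which govern Bcl2a1b, Birc3, Cflar and Casp4 in myeloid cells, had a median log2 ratio of 0.011 over 25 measured, with 14 higher and 11 lower, none (0) past 1.5-fold, and intervals above 1 for 2 and below 1 for 4. Beside these counts, 10.1% of all measured genes had an interval above 1 and 11.4% one below 1. Inhibitors of the pathway went both ways. Nfkbia had 15960.5 and 12484 normalised reads, for a ratio of 0.782 (0.762 to 0.803), and Tnfaip3 (A20) had one of 0.819 (0.799 to 0.839). Tnip1 had a ratio of 1.11 (1.02 to 1.21), and the intervals of Nfkbie, Tnip2 and Nfkbib (2.97 Mb from Axl) included 1. The atypical IkB genes Nfkbiz and Bcl3 had ratios of 0.848 (0.818 to 0.880) and 1.21 (1.08 to 1.35). Bcl3 lies 5.93 Mb from Axl. Of the death genes under NF-kB, Cflar and Casp4 had intervals below 1, and Birc3 and Bcl2a1b had intervals that included 1.

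**Figure D4:**
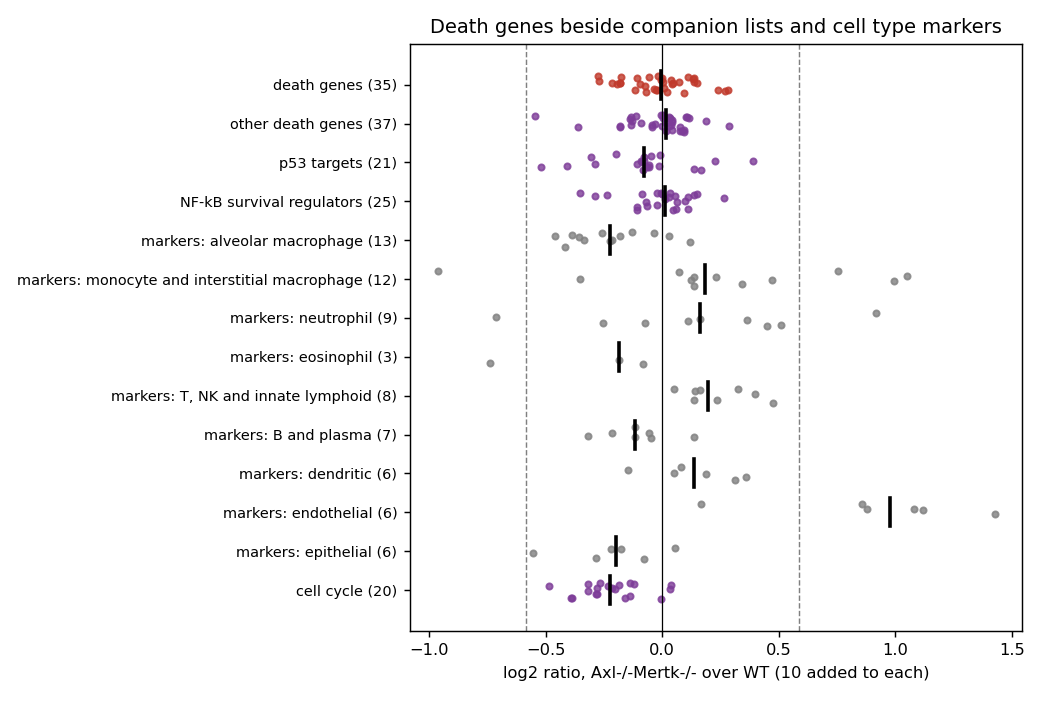
Each point is a measured gene's log2 ratio of Axl-/-Mertk-/- over WT with 10 added to each value, by list, with the number of genes in brackets, black bars at the medians and dashed lines at 1.5-fold. The 35 death genes and the lists of other death genes, p53 targets, NF-kB regulators and cell cycle genes stay inside the dashed lines, while some markers of endothelium, monocytes, neutrophils and eosinophils reach beyond them.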

How the data were processed

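Per the labels' protocols, messenger RNA of sorted macrophages was selected with oligo-dT beads and made into strand-specific libraries. Values come as a signal deposited by the authors, who scaled the read count of each gene by a size factor of its library. TopHat2, DESeq2 and the build GRCm38 are named in the submitters' processing notes; the counting program, its strand setting and the treatment of reads matching several places were not given in the sources used here. The table has 0 columns of other samples, and 1585 of its genes have no symbol. Groups were taken from the genotype in the labels.

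All values (100%) were whole multiples of the smallest in their column, within 1e-06, so whole reads were recovered (1 read equals 1.21 normalised reads in WT and 1.18 in the mutant). With 1 library per group, the quasi-likelihood test of edgeR could not be fitted. A gene was called past 1.5-fold on log2 ratios with a pseudocount of 10, and measured at a mean of at least 20. Ratios with intervals carry no pseudocount. Without molecular identifiers, reads need not be separate molecules, and intervals cover counting error only. Levels per kilobase used the union of annotated exons in GENCODE vM21.

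The members and gene lists were chosen with earlier results of these data known. The rule named all members, up to 4 genes with the largest ratio and a mean of at least 50 from each companion list, and Gsdmd and Birc5; 2 further genes it named are not reported here; Tnfrsf1a, Tnfrsf1b, Il7r, Cd3e, Gata3, Gzma, Chil3, Alox15, Ccr3, Prg2, Tnip1, Tnip2, Nfkbie, Nfkbib, Itgax, Siglecf, Pecam1, Kdr, Cldn5, Cdkn1a, Mdm2 and Casp12 were added after their values were seen, and from the marker lists, which are given as sums, single genes were mostly left out. Near copies were searched with BLAST+ 2.17.0 (at least 95% identity over 300 bases). The rule and the intervals were tested on reads simulated with counting error only. Those data hold no spread between animals or libraries, so the test says nothing about it. Python 3.11.15, numpy 2.4.6, pandas 2.3.3, SciPy 1.17.1, matplotlib 3.10.9 and, for TMM factors, edgeR 4.0.16 in R 4.3.3 were used.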

Additional observations from a re-analysis of the deposited data

How the results depend on the processing

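The number of death genes past 1.5-fold was 0 under every setting tried: a pseudocount of 1 or 50, no minimum mean or one of 100, scaling by total reads, by median-of-ratios factors of these libraries or by TMM, leaving out members within 20 Mb of Mertk or Axl, and a threshold of 0.32 or 1 on the log2 scale. The number whose interval excluded 1 ranged from 6 to 8, the median log2 ratio from -0.013 to 0.0084, and all 175 recomputed log2 ratios of single members stayed within their counting interval. These settings could hardly have moved a ratio further, since the scalings shifted log2 ratios by at most 0.016. The pseudocount mattered most at low counts: Tnfrsf10b was at -0.35 with 1 and -0.14 with 50. With the length of the longest coding transcript in place of the exon union, a setting chosen after seeing the data, 7 of the 8 most abundant members per kilobase in WT stayed among the top 8, while Mcl1 stood 16.1-fold above Bcl2l1 in WT in place of 28.8-fold. Summing the Bcl2a1 copies gave no separate value, since of the 3 only Bcl2a1b has a row. No paired analysis was possible because each group has 1 library, and for the same reason no library could be left out. Depth limits Bik, Tnfrsf10b, Tnfsf10, Bbc3 and Bcl2, and the spread between animals is unknown for every gene.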

Other observations

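Casp12, a caspase of the endoplasmic reticulum and no member of the set, had 5 reads in WT and 22 in the mutant, for a ratio of 4.30 (1.59 to 14.5). It was singled out after its values were seen, and its mean was below the minimum of 20 normalised reads for a measured gene. The endothelial marker genes Cdh5 (80.9 and 155 normalised reads), Ptprb (72.4 and 169), Adgrf5 (103 and 228), Kdr (31.4 and 66.1) and Cldn5 (20.5 and 72.0) were also higher in the mutant, whereas Pecam1, which macrophages express as well, was at 507 and 570.1. Their part in the Casp12 value was not tested.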
